A study of Mus musculus with 20 samples.

Results

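The 10 genes studied here encode G protein-coupled receptors (GPCRs), most of which are known to restrain lipolysis or to sense metabolites in adipocytes. Their levels are given across the 20 libraries of the study: Ffar2, Ffar4, Hcar1, Hcar2, Sucnr1, Ptger3, Adora1, Npy1r, Cnr1 and Gipr. The members were named by symbol and each was found by its Ensembl identifier, so the group held 10 of the 46078 genes in the count table, and all 10 were among the 21464 genes tested. Lipolysis is the release of fatty acids and glycerol from stored triglyceride, and it is driven by cAMP. Receptors that couple to inhibitory G proteins lower adenylyl cyclase activity and so slow lipolysis, which is how lactate, ketone bodies, prostaglandin, adenosine and neuropeptide Y act on fat cells. Ligands for these receptors come from the fat cell itself, from neighbouring cells, from nerves and from gut bacteria.

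The libraries held ribosome-associated RNA of epididymal adipose tissue (epiAT) from AdipoERCre x NuTRAP mice, in which tamoxifen induces a tag on the ribosomes of cells with an active Adipoq promoter, and the tagged ribosomes are pulled down. All groups carried both transgenes and received tamoxifen, and each library came from 1 mouse. In the short arm, C mice stayed on chow and H mice received a high fat diet (HFD) for 12 weeks, both to 18 weeks of age, whereas CC_s mice stayed on chow and HC mice received 12 weeks of HFD and then 8 weeks of chow (weight loss, WL), both to 26 weeks of age, with n = 3 per group. In the long arm, CC_l mice stayed on chow and HH mice received 25 weeks of HFD, both to 31 weeks of age, whereas CCC mice stayed on chow and HHC mice received 25 weeks of HFD and then 8 weeks of chow, both to 39 weeks of age, with n = 2 per group. The chow group of the same age in the same arm served as the control of each. In the paper, the chow of C and CC_l was low in fat, and CC_s, HC, CCC and HHC were switched to standard chow for the WL period.

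The members are protein-coding genes, placed here on the mm10 build. Ffar2 lies at chr7:30818348-30823775 on the minus strand, Ffar4 at chr19:38097071-38114263 on the plus strand, and Npy1r at chr8:66697192-66706792 on the plus strand. Hcar1, at chr5:123876736-123880020, and Hcar2, at chr5:123863570-123865499, are neighbours on the minus strand of the same chromosome and shared no stretch of 50 bases with each other or with another annotated transcript. Ptger3 lies at chr3:157566892-157645888 and Sucnr1 at chr3:60081869-60087566, both on the plus strand. Cnr1 lies at chr4:33924593-33948831 on the plus strand and Gipr at chr7:19156061-19166127 on the minus strand. Adora1, at chr1:134199223-134235431 on the minus strand, shares 20.1% of its exon bases with Mybph on the opposite strand, and libraries of this kind do not mark strand, so its counts are uncertain by that overlap. Mybph itself had between 0 and 3 counts in every library.

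The sequences upstream of the 3 members that passed the cut-offs for a differentially expressed gene (DEG) in at least 1 comparison with chow are shown, since these are the genes on which the comparisons turn. Each run holds the 250 bases before a RefSeq gene start on GRCm38.p6, 5′ to 3′ on the strand of the gene, and capitals mark matches on either strand to the motifs searched.
Ffar2, chr7:30823776-30824025, minus strand: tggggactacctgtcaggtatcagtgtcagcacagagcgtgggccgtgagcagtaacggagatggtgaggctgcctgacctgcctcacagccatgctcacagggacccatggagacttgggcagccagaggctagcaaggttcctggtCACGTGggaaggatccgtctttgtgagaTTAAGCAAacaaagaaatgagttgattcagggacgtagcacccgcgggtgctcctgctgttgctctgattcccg
Ffar4, chr19:38096829-38097078, plus strand: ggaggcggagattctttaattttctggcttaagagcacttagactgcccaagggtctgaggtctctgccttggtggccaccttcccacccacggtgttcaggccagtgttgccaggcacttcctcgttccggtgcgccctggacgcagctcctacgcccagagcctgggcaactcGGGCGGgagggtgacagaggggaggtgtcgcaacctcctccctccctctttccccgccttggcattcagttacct
Npy1r, chr8:66697172-66697421, plus strand: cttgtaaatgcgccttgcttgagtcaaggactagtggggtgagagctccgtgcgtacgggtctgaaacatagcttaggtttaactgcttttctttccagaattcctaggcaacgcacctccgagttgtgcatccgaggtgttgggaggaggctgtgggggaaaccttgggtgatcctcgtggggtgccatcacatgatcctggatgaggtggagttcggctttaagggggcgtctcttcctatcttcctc
Searched on both strands were the letters of the TATA box (TATAAA), of the CAAT box (CCAAT), of sites for C/EBP factors (TTGCNNAA), of the E-box (CACGTG) and of the GC box (GGGCGG), as well as the direct repeat with 1 spacer base that PPAR and RXR bind. No matches overlap in these 3 runs. The Ffar2 run, upstream of the outermost of its 4 listed starts, held an E-box 102 bases and a C/EBP match on the opposite strand 74 bases before the start. Among 32851 RefSeq promoters cut the same way, 6.02% held the E-box and 9.56% the C/EBP letters. The Ffar4 run held a GC box 75 bases before the start, a motif found in 32.7% of promoters. The Npy1r run held none of the 6 motifs. Most of this run lies inside the gene as placed above, since the RefSeq start used is later than the start given there. RefSeq promoter entries matched 8 of the 10 members, and none of their 14 promoters held TATAAA or the direct repeat, which 12.4% and 0.338% of all promoters held. The CAAT box was in 33.8% of all promoters and in 1 of the 14. These are matches of letters only.

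Total counts ranged from 10710277 to 36738954 per library, so 3 counts, the floor used here, corresponded to 0.0815 to 0.251 CPM (counts scaled to library sizes adjusted by TMM). All 14 adipocyte markers (Adipoq, Plin1, Lep and others) had counts in every library. Markers of other cells were also present. Spermatid markers summed to 3114 CPM in CC_l replicate 1 and to 434 CPM in HC replicate 3, and epididymal epithelium markers to 2228 CPM in C replicate 1. H replicate 2 had the next highest epididymal sum, 244 CPM, close to the 220 CPM of HH replicate 1. The counts of DEGs are also given without these 4 libraries, the highest pair of each list, where that changed them. The coefficient of biological variation over all genes was 0.680.

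In chow mice the receptors spanned a wide range of levels per transcript length. Sucnr1, the receptor for succinate, was the highest, with a mean of 41.6 ± 20.6 CPM per kb of exon (SD, n = 10 chow mice of all 4 chow groups), above 94.1% of the genes tested. Ffar4, which binds long-chain unsaturated fatty acids, followed with 21.1 ± 8.13 CPM per kb. Hcar1, the lactate receptor, had 17.5 ± 5.22, Ffar2, the receptor for short-chain fatty acids, 17.1 ± 5.46, and Adora1, the adenosine receptor that couples to inhibitory G proteins, 16.9 ± 6.82 CPM per kb. These last 4 did not differ beyond their spread. Ptger3, a prostaglandin E receptor coupled to inhibitory G proteins, had 11.5 ± 4.69 CPM per kb, with a range of 4.45 to 19.4 that overlapped theirs. Hcar2, the receptor for the ketone body beta-hydroxybutyrate and for niacin, had 4.63 ± 1.62 CPM per kb. Npy1r, a receptor of neuropeptide Y, had 1.14 ± 0.70 CPM per kb, and Cnr1, the cannabinoid receptor of brain and fat, had 0.742 ± 0.403, with overlapping ranges. Gipr, the receptor of the gut hormone GIP, which couples to the stimulatory G protein, was the lowest at 0.332 ± 0.367 CPM per kb, below the level of most genes tested, with 3 of the 10 chow mice at 0 counts.

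**Figure D1:**
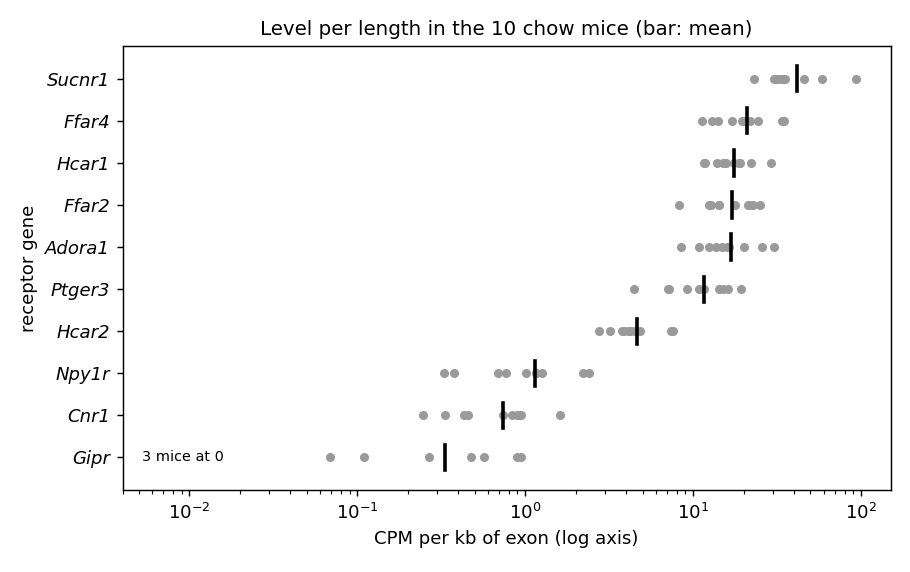
CPM per kb of exon (log axis) of the 10 receptor genes in the 10 chow mice, 1 point a mouse, with the mean as a bar. Sucnr1 sits highest at a mean of 41.6, Ffar4, Hcar1, Ffar2 and Adora1 overlap between 16.9 and 21.1, and Gipr is lowest at 0.332 with 3 mice at 0.

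The first comparison asked how 12 weeks of HFD differed from chow at 18 weeks. Ffar2 rose and Ffar4 fell in H, so 2 fatty acid receptors moved in opposite directions, and Hcar1 was lower without quite reaching the DEG cut-offs. A DEG here is a gene with a nominal p under 0.01 and a log2 fold change (log2FC) of at least 1 in size in the edgeR quasi-likelihood test. In all, 2 of the 10 members were DEGs, where 6.49% of all tested genes were (3.57% up and 2.92% down).

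Ffar2 was at 5.89, 5.99 and 5.13 log2 CPM in the C mice and at 6.99, 7.30 and 6.58 in the H mice. Every H mouse lay above every C mouse. The log2FC was 1.27 (SE 0.37, 95% interval 0.48 to 2.05), a 2.41-fold higher level, with a nominal p of 0.00334 and an edgeR adjusted p of 0.0863 (Benjamini-Hochberg over all genes tested). Ffar4 was at 5.61, 4.59 and 4.83 log2 CPM in C and at 3.82, 3.42 and 3.74 in H. All 3 H mice were below all C mice, and C replicate 1 was the highest of them. The log2FC was -1.41 (SE 0.44, 95% interval -2.33 to -0.49), with a nominal p of 0.00473 and an edgeR adjusted p of 0.102. Both calls depended on single mice: Ffar2 was no longer a DEG without C replicate 3 (log2FC 1.04) or H replicate 2 (1.08), and Ffar4 without C replicate 1 (-0.996), H replicate 1 (-1.498), H replicate 2 (-1.30) or H replicate 3 (-1.45). Over the 7 settings that kept all libraries the adjusted p ran from 0.0313 to 0.137 for Ffar2 and from 0.0114 to 0.168 for Ffar4. Without the 4 libraries with the highest spermatid or epididymal markers, Ffar2 had a log2FC of 1.197 and Ffar4 of -0.89, and neither was a DEG.

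Hcar1 was at 5.97, 5.52 and 6.57 log2 CPM in C and at 5.00, 5.33 and 4.35 in H, again without overlap. Its log2FC of -1.14 (SE 0.39) had a nominal p of 0.01005 and an edgeR adjusted p of 0.148. Over the 7 settings that kept all libraries, the adjusted p ran from 0.0192 with DESeq2 to 0.216. Hcar1 passed the cut-offs without C replicate 2 (-1.36) or H replicate 2 (-1.38). Adora1 was at 6.53, 5.62 and 6.43 in C and at 6.998, 6.72 and 7.61 in H, all above C, with a log2FC of 0.92 (SE 0.36, edgeR adjusted p = 0.201). Without the same 4 libraries its log2FC was 1.32 and it passed the cut-offs. Ptger3 overlapped between the groups, from 4.67 to 6.35 in C and from 6.05 to 6.98 in H, with a log2FC of 0.85 (SE 0.54). Sucnr1 ranged from 5.70 to 6.59 in C and from 5.26 to 5.72 in H (log2FC -0.68, SE 0.42).

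The scarcer receptors gave wide intervals. Hcar2 had a log2FC of 0.41 (SE 0.51), Cnr1 of -0.34 (SE 0.62) and Npy1r of -0.16 (SE 0.60), all with overlapping groups. The Cnr1 value was -1.04 without H replicate 2 and -0.049 without H replicate 3. Gipr had 17, 66 and 0 counts in C and 98, 147 and 85 counts in H. Every H mouse had more than every C mouse, yet the 95% interval of the log2FC ran from -1.997 to 4.97. Members without overlap numbered 3 higher and 2 lower, where 13.4% and 11.8% of all tested genes were so. A nominal p under 0.05 was reached by 4 members (17.1% of all genes).

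**Figure D2:**
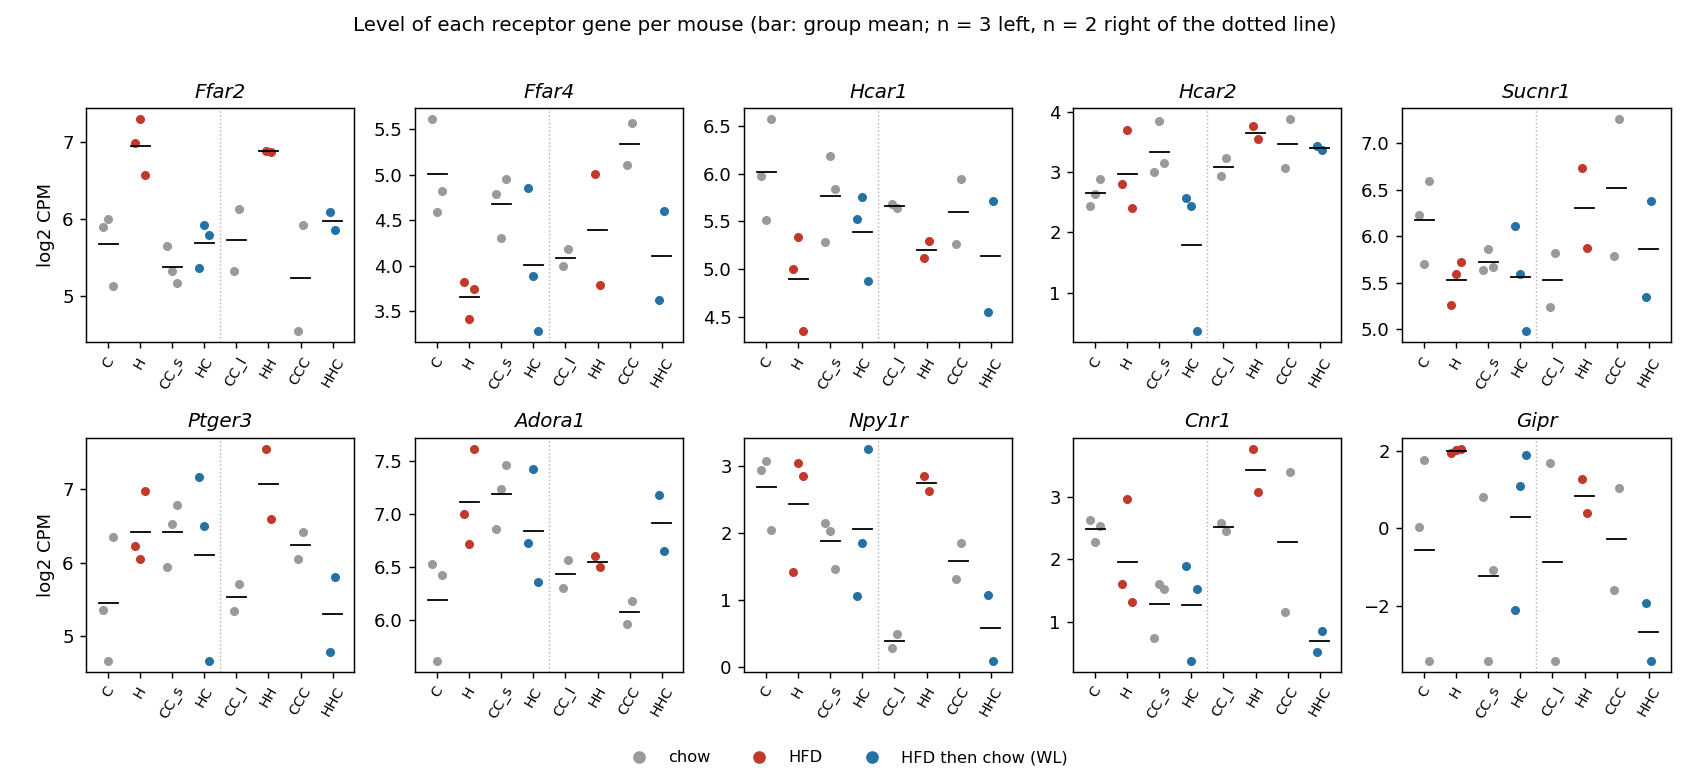
log2 CPM of each receptor gene per mouse in the 8 groups, 1 point a mouse, with the group mean as a bar, chow in grey, HFD in red and HFD then chow in blue. The H points of Ffar2 lie between 6.58 and 7.30, above all C points, the H points of Ffar4 between 3.42 and 3.82, below all C points, and the HH points of Npy1r at 2.63 and 2.86 above CC_l at 0.29 and 0.49.

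After WL in the short arm, none of the members was a DEG between HC and CC_s, where 1.74% of all tested genes were. The Ffar2 and Ffar4 levels of HC overlapped those of CC_s. Ffar2 was at 5.64, 5.33 and 5.16 log2 CPM in CC_s and at 5.35, 5.93 and 5.79 in HC, with a log2FC of 0.32 (95% interval -0.46 to 1.09). Ffar4 was at 4.78, 4.31 and 4.95 in CC_s and at 4.86, 3.89 and 3.28 in HC, where the mice spread over more than 1.5 log2 units (log2FC -0.55, 95% interval -1.45 to 0.36). Hcar1 had a log2FC of -0.39 (95% interval -1.21 to 0.43).

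Hcar2 was the only member whose groups did not overlap here. It was at 3.01, 3.85 and 3.14 log2 CPM in CC_s and at 2.56, 2.43 and 0.36 in HC, and HC replicate 3 was far below the others with 24 counts. The log2FC was -1.33 (SE 0.52, edgeR adjusted p = 0.544), and -0.90 without HC replicate 3. DESeq2 placed it past the cut-offs, with an adjusted p of 0.163, and the adjusted p ran up to 0.905 over the other settings. HC replicate 3 was also the library with spermatid markers and had the lowest summed adipocyte markers of all libraries, 19895 CPM. The part of these in the Hcar2 value was not tested. Of all tested genes, 8.01% were higher and 5.82% lower without overlap, and 8.69% had a nominal p under 0.05, against 1 member.

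Ptger3, Adora1, Npy1r, Cnr1 and Sucnr1 had estimates within 0.5 log2 units of CC_s, with wide intervals. Ptger3 was at 7.17, 6.49 and 4.67 log2 CPM in HC, a spread that enclosed all CC_s mice (log2FC -0.03, SE 0.54). Adora1 had a log2FC of -0.30 (SE 0.36), Npy1r of 0.44 (SE 0.61), Cnr1 of 0.06 (SE 0.62) and Sucnr1 of -0.09 (SE 0.42). Gipr had 25, 0 and 6 counts in CC_s and 4, 51 and 73 in HC, and its log2FC of 1.52 (SE 1.68) had a 95% interval of -2.02 to 5.07.

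In the long arm, HFD for 25 weeks went with a higher level of Npy1r, the neuropeptide Y receptor, which was the only DEG among the members and rose. Most other members were also higher on average, with 8 of the 9 members other than Gipr above CC_l and a median log2FC of 0.81. Of all tested genes 42.5% were higher, and the median over them was -0.23. DEGs made up 6.79% of all tested genes, 4.92% as increases. With 2 mice per group, the estimate of the spread was shared with all 20 libraries.

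Npy1r was at 0.29 and 0.49 log2 CPM in CC_l (37 and 20 counts) and at 2.86 and 2.63 in HH (157 and 134 counts). The CC_l mice were lower than all other chow mice in the study, and the HH mice lay within the range of the C mice of the short arm, 2.04 to 3.08. The log2FC was 2.44 (SE 0.79, 95% interval 0.78 to 4.10), with a nominal p of 0.00647 and an edgeR adjusted p of 0.120. Leaving out any of the 4 mice kept the log2FC between 2.32 and 2.55 but ended the call, with nominal p between 0.0135 and 0.0370. CC_l replicate 1 was 1 of them, the library with 3114 CPM of spermatid markers, and without the 4 libraries with the highest spermatid or epididymal markers the log2FC was 2.42 and the call was lost. The call was also lost with replicate number as a block (log2FC 2.43). Without the filter on low counts Npy1r missed the cut-offs. The adjusted p ran from 0.0258 with DESeq2 to 0.226 over the settings that kept all libraries.

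Ptger3 and Ffar2 were next. Ptger3 was at 5.35 and 5.72 log2 CPM in CC_l and at 7.55 and 6.60 in HH, with a log2FC of 1.61 (SE 0.67, edgeR adjusted p = 0.232). Ffar2 was at 5.31 and 6.13 in CC_l and at 6.89 and 6.87 in HH, the same direction as in H (log2FC 1.10, SE 0.45, edgeR adjusted p = 0.228). Both HH mice were above both CC_l mice for each gene. Both genes passed the DEG cut-offs when only HH and CC_l entered the fit, and Ptger3 also without the filter on low counts. Over the 7 settings that kept all libraries, the Ptger3 adjusted p ran from 0.0286 without that filter to 0.355. That of Ffar2 ran from 0.0931 to 0.276. Without CC_l replicate 1 the Ffar2 log2FC was 0.75.

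Cnr1 was at 2.59 and 2.45 log2 CPM in CC_l and at 3.77 and 3.08 in HH (log2FC 0.96, SE 0.76). Sucnr1 was at 5.24 and 5.81 in CC_l and at 6.73 and 5.87 in HH (log2FC 0.81, SE 0.51). Hcar2 had a log2FC of 0.57 (SE 0.62), again with both HH mice higher. Hcar1 was lower in both HH mice, at 5.11 and 5.30 against 5.69 and 5.64 log2 CPM, with a log2FC of -0.46 (SE 0.48). Ffar4 was at 4.00 and 4.18 in CC_l and at 5.01 and 3.79 in HH, so the groups overlapped (log2FC 0.43, 95% interval -0.68 to 1.54). Adora1 had a log2FC of 0.11 (SE 0.44). Gipr had 102 and 0 counts in CC_l and 51 and 27 in HH, so the pair of chow mice enclosed the HH mice. Members without overlap numbered 6 higher and 1 lower, where 26.3% and 28.9% of all tested genes were so, and 3 members reached a nominal p under 0.05 (17.4% of all genes).

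**Figure D3:**
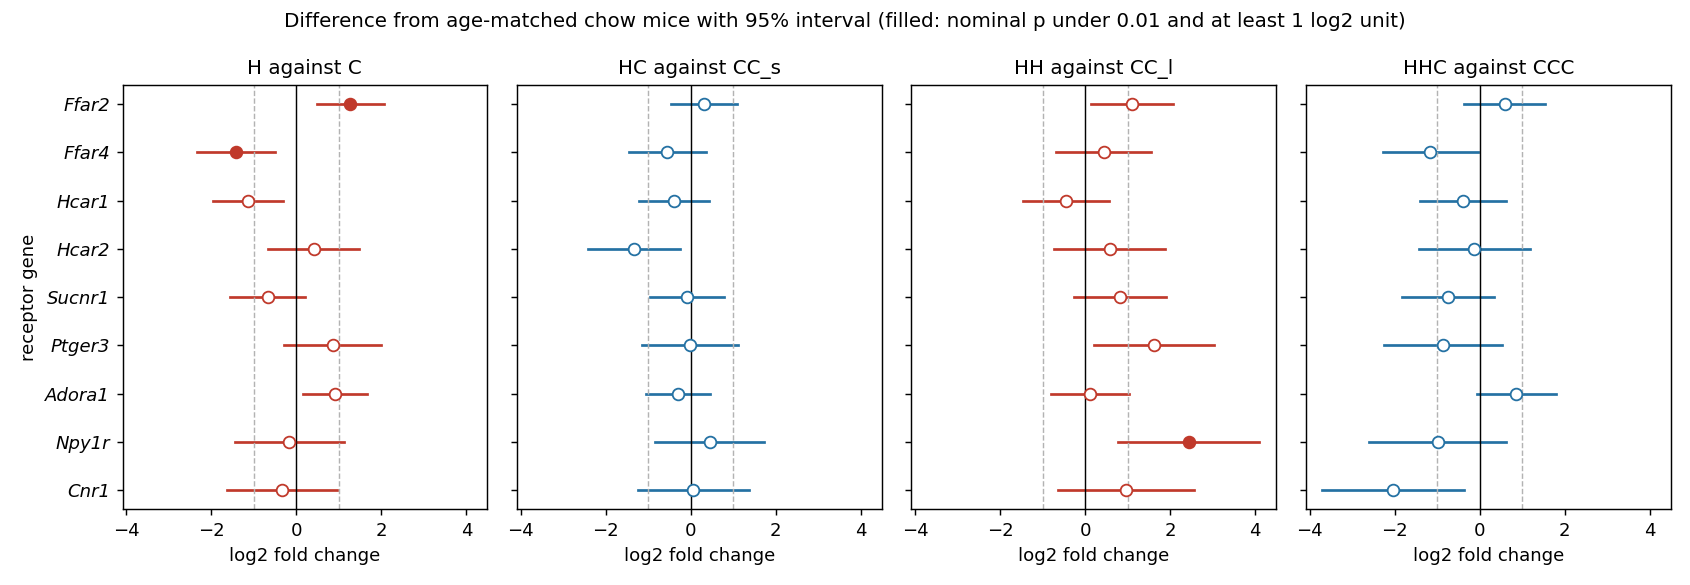
log2 fold change of 9 receptor genes in the 4 comparisons with chow, with 95% intervals, filled where a gene was a DEG. Gipr is left out because of its low counts. Filled points are Ffar2 (1.27) and Ffar4 (-1.41) in H and Npy1r (2.44) in HH.

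After WL in the long arm no member was a DEG between HHC and CCC, where 3.12% of all tested genes were, and the members mostly lay below chow. Of the 9 members other than Gipr, 2 were higher, and the median log2FC was -0.75. Of all tested genes 43.3% were higher, and the median over them was -0.06. Cnr1 was at 1.17 and 3.40 log2 CPM in CCC and at 0.52 and 0.86 in HHC, so both HHC mice were lower while the CCC mice were more than 2 log2 units apart. Its log2FC was -2.03 (SE 0.79, edgeR adjusted p = 0.368). Without CCC replicate 1 it was -2.76 and Cnr1 passed the cut-offs, and without CCC replicate 2 it was -0.48.

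Ffar4 was at 5.10 and 5.57 log2 CPM in CCC and at 3.62 and 4.60 in HHC, with both HHC mice lower (log2FC -1.16, SE 0.53, edgeR adjusted p = 0.448). Ptger3 was at 6.05 and 6.43 in CCC and at 4.79 and 5.80 in HHC (log2FC -0.86, SE 0.66). Npy1r was at 1.31 and 1.85 in CCC and at 1.07 and 0.09 in HHC (log2FC -0.99, SE 0.77). Sucnr1 overlapped between the groups (log2FC -0.75, SE 0.51). Adora1 was the member higher without overlap, at 5.97 and 6.18 in CCC and at 7.18 and 6.65 in HHC, with a log2FC of 0.86 (SE 0.44, edgeR adjusted p = 0.505). Ffar2 had a log2FC of 0.59 (SE 0.45), which was 0.060 without CCC replicate 1 and 1.445 without CCC replicate 2. Hcar1 had a log2FC of -0.39 (SE 0.48) and Hcar2 of -0.12 (SE 0.62). Gipr had 4 and 36 counts in CCC and 2 and 0 in HHC, at or under the floor of 3 counts per library, and no fold is given. Members without overlap numbered 1 higher and 5 lower, Gipr among the latter, where 8.49% and 20.3% of all tested genes were so. A nominal p under 0.05 was reached by 2 members (10.7% of all genes).

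Whether the difference from chow changed between HFD and WL was tested with an interaction term within each arm. In the short arm no member reached an adjusted p under 0.05 in edgeR, and 0% of all tested genes did. Hcar2 (HC effect minus H effect -1.74, SE 0.72, edgeR adjusted p = 0.364) and Adora1 (-1.21, SE 0.51, edgeR adjusted p = 0.366) had a nominal p under 0.05, as did 11.8% of all genes. For Ffar2 the interaction was -0.95 (95% interval -2.04 to 0.15) and for Ffar4 0.87 (95% interval -0.41 to 2.14), so a return of either toward chow was not shown by this test. In the long arm no member reached an adjusted p under 0.05 either, where 0.815% of genes did. Npy1r was closest, with an HHC effect minus HH effect of -3.43 (SE 1.09, edgeR adjusted p = 0.138), and the adjusted p was 0.0480 with DESeq2. Cnr1 (-2.99, SE 1.09), Ptger3 (-2.48, SE 0.94), Ffar4 (-1.59, SE 0.75) and Sucnr1 (-1.56, SE 0.72) also had a nominal p under 0.05, which 15.5% of genes had, with edgeR adjusted p between 0.195 and 0.316. The estimates of all 5 were negative, that is, lower relative to chow in HHC than in HH.

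The arms were tested against each other only through these differences from chow, since the labels name the libraries of each arm apart. Levels described across the arms elsewhere were not tested. The Ffar4 effect was 1.84 log2 units higher in HH than in H (SE 0.68), that of Npy1r 2.60 (SE 0.98) and that of Sucnr1 1.49 (SE 0.66). Only these 3 of the 10 members reached a nominal p under 0.05 in the edgeR test, as did 5.79% of all tested genes. The edgeR adjusted p was 0.848 for each of the 3. For the HHC effect minus the HC effect, 0 members reached a nominal p under 0.05, where 11.8% of genes did.

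Chow mice of different age also differed in some members, none of them as DEGs. Of all genes, 2.45% were DEGs between CC_s and C and 2.66% between CCC and CC_l. These groups differed in the kind of chow as well, so age and chow cannot be told apart. Adora1 was higher in CC_s than in C by 0.96 log2 units (SE 0.36, edgeR adjusted p = 0.410), a difference as large as that between H and C, and all CC_s mice were above all C mice. Ffar4 was higher in CCC than in CC_l by 1.27 (SE 0.53, edgeR adjusted p = 0.406) and Sucnr1 by 1.15 (SE 0.52, edgeR adjusted p = 0.414). Npy1r was higher in CCC than in CC_l by 1.275 (SE 0.77, edgeR adjusted p = 0.528), with both CCC mice above both CC_l mice. A nominal p under 0.05 was reached by 1 and 2 members, and by 11.2% and 11.5% of genes, in these comparisons. Members without overlap numbered 2 higher and 1 lower in CC_s, where 5.31% and 7.39% of all tested genes were so. In CCC they numbered 3 higher and 1 lower, where 17.6% and 17.4% of all tested genes were so.

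The receptors act through cAMP, and some genes that make or degrade it passed the DEG cut-offs. Among 17 adenylyl cyclases, which make cAMP, and phosphodiesterases, which degrade it, 4 rose and 0 fell in H, 0 were DEGs in HC, 6 rose and 0 fell in HH, and 0 rose and 1 fell in HHC, beside 6.49%, 1.74%, 6.79% and 3.12% of all genes. When single mice were left out, the number that rose ran from 2 to 4 in H and from 1 to 5 in HH, the lowest without H replicate 2 or C replicate 3 and without CC_l replicate 1, and without the 4 libraries with the highest spermatid or epididymal markers it was 1 in each. The number that fell in HHC ran from 0 without CCC replicate 2 to 3 without CCC replicate 1, and 1 fell in HH without CC_l replicate 2. The median log2FC of the list was 0.15 in H and 0.38 in HH, where that of all genes was -0.15 and -0.23. Adcy5 was at 4.92, 4.95 and 5.22 log2 CPM in C and at 6.46, 6.69 and 6.28 in H (log2FC 1.45, SE 0.32, edgeR adjusted p = 0.0250), and it also rose in HH (1.14, SE 0.39), a call kept only when HH replicate 2 was the mouse left out. The cyclase Adcy4 was at 1.47 and 1.96 log2 CPM in CC_l and at 5.43 and 4.58 in HH, where it rose (3.37, SE 0.72, edgeR adjusted p = 0.0279), and it fell in HHC (-2.63, SE 0.71). In CCC, Adcy4 was at 3.37 and 4.28 log2 CPM. Adcy4 and the phosphodiesterase Pde7a also rose as DEGs in CCC against CC_l, where 2.66% of all genes were DEGs. Adcy5 in H and Adcy4 in HH passed the cut-offs whichever mouse was left out, and the Adcy4 call in HHC was lost without HHC replicate 1 (-2.35) or CCC replicate 2 (-2.10). Pde4b rose in H (2.17, SE 0.63) and HH (2.80, SE 0.79), as did Adcy7 (2.15, SE 0.59, and 2.56, SE 0.73), while Pde7a rose in HH (1.501, SE 0.41). Each of these calls was lost without at least 1 single mouse, and Adcy7 in H had a log2FC of 1.17 without H replicate 2. The others, named after their values were seen, were Pde8a in H (1.02, SE 0.32) and Pde3a in HH (2.41, SE 0.74), and each missed the cut-offs in most of the fits without 1 mouse. Markers of other cells moved in the same comparisons. Endothelial markers, of a cell type also known to express Adcy4 and the G protein subunit Gng11, summed to 135 to 147 CPM in CC_l, 722 to 1359 in HH, 241 to 491 in CCC and 74.2 to 98.4 in HHC. Macrophage markers, of a cell type also known to express Adcy7, Pde4b and Entpd1, summed to 208 to 368 CPM in C, 550 to 3081 in H, 206 to 368 in CC_l and 3020 to 3949 in HH. The part of these cells in the values of these genes was not tested.

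DEGs made up 6.49%, 1.74%, 6.79% and 3.12% of all tested genes in H, HC, HH and HHC, the shares to set beside the counts of each list below. Of 17 G protein subunits, 3 rose in H and 1 in HH, none was a DEG in HC, and in HHC 1 rose and 1 fell, with a list median of 0.36 in H and -0.37 in HH. Gnai2, an inhibitory alpha subunit, was at 6.55, 7.14 and 7.53 log2 CPM in C and at 8.95, 8.40 and 8.78 in H (log2FC 1.60, SE 0.43, edgeR adjusted p = 0.0636), and it was higher in CC_s than in C by 1.45 (SE 0.43) as well. The gamma subunit Gng2 rose in H (1.84, SE 0.34, edgeR adjusted p = 0.00996) and in HHC (1.86, SE 0.41), and Gng11 in H (2.65, SE 0.54) and HH (3.76, SE 0.69). Gng2 also rose as a DEG in CC_s against C, at 3.32, 3.42 and 4.29 log2 CPM in C and 4.93, 4.93 and 4.79 in CC_s. The beta subunit Gnb4 fell in HHC (-1.74, SE 0.47). Gng11 in both comparisons and Gnai2 and Gng2 in H passed the cut-offs whichever mouse was left out. Without the 4 libraries with the highest spermatid or epididymal markers Gnai2 did not (1.57), and in HHC Gng2 did not without HHC replicate 1 (1.14), nor Gnb4 without HHC replicate 2 (-1.24). Of 7 receptor kinases and arrestins, which switch receptors off, only Grk4 was a DEG, in HH (log2FC -2.40, SE 0.81), and the list median was -0.03 in H and -0.14 in HH. The Grk4 value rested on CC_l replicate 1, the library with the most spermatid markers, which held 38.9 CPM of Grk4 against 5.63 in CC_l replicate 2 and 4.01 and 4.405 in HH. Without CC_l replicate 1 the log2FC was -0.42 and Grk4 was not a DEG. Without C replicate 3, 1 of these genes rose and 1 fell in H.

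Of the 17 listed receptors of the same ligands or families, 12 were tested. Ptger4, a prostaglandin E receptor that couples to the stimulatory G protein, was the only DEG and rose in HH (2.65, SE 0.89, edgeR adjusted p = 0.134). It passed the cut-offs without CC_l replicate 2 (4.06) but not without any of the other 3 mice, with 1.94 without CC_l replicate 1. Without C replicate 2, 1 of the 12 rose in H. DEGs made up 6.49%, 1.74% and 6.79% of all tested genes in H, HC and HH. Of 32 tested enzymes, carriers and precursors of the ligands, 2 rose and 2 fell in H, 1 rose in HC and 3 rose in HH. Without single mice 0 to 2 rose and 1 to 4 fell in H, 0 to 1 rose in HC and 1 to 2 rose in HH, and without the 4 libraries with the highest spermatid or epididymal markers 0 rose and 2 fell in H, 1 rose in HC and 1 rose in HH. The prostaglandin E synthase gene Ptges was at 7.01, 5.67 and 8.00 log2 CPM in C and at 4.10, 4.00 and 4.94 in H (log2FC -2.78, SE 0.61, edgeR adjusted p = 0.0267). Entpd1, which begins the breakdown of extracellular ATP, rose in H (2.00, SE 0.59) and HH (2.59, SE 0.73), whereas Nt5e, which forms adenosine from AMP, fell in H (-2.81, SE 0.75). Nt5e also fell as a DEG between the chow groups, in CC_s against C, where 2.45% of all genes were DEGs. Its level was 32.3, 23.8 and 5.64 CPM in C, 3.19, 4.35 and 1.25 in H, and 4.501, 5.899 and 3.04 in CC_s. Daglb, which makes the endocannabinoid 2-arachidonoylglycerol, rose in H (1.61, SE 0.48) and HH (3.01, SE 0.62). Ptges in H and Daglb in HH passed the cut-offs whichever mouse was left out, whereas Entpd1, Nt5e and Daglb in H each lost the call without at least 1 mouse, Daglb with a log2FC of 1.06 without H replicate 2. Slc16a1, a lactate carrier, rose in HH (1.44, SE 0.47). It also rose as a DEG in CCC against CC_l, where 2.66% of all genes were DEGs. Its log2 CPM was 4.58 and 4.54 in CC_l, 6.13 and 5.85 in HH, and 5.21 and 6.66 in CCC. The increase in HC was Npy, the precursor of neuropeptide Y. It had 0 counts in all CC_s mice and 0, 304 and 28 counts in HC, so no fold is given. Slc16a1 and Npy were named after their values were seen, and their calls in HH and HC were lost in most fits without 1 mouse.

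**Figure D4:**
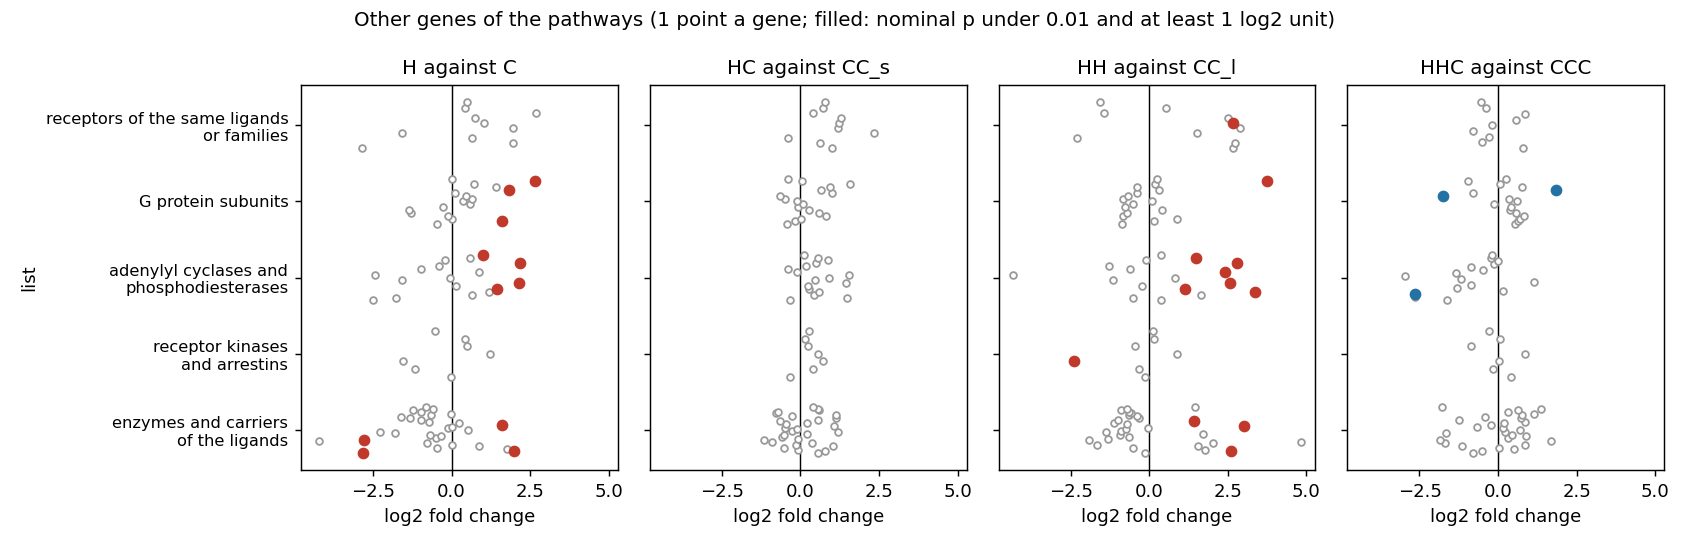
log2 fold change of the other genes of the pathways in the 4 comparisons with chow, 1 point a gene, filled where a gene was a DEG. Genes with every library of a group at 3 counts or fewer are left out. Filled points of cyclases and phosphodiesterases number 4 in H and 6 in HH, all higher.

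Markers of other cells moved in the same comparisons as several receptors. In a pull-down from whole tissue, more cells of a type and more RNA per cell cannot be told apart. Beside the marker counts below, DEGs made up 6.49%, 1.74%, 6.79% and 3.12% of all tested genes in H, HC, HH and HHC. Of 10 macrophage markers, 7 rose in H, 7 in HC and 8 in HH, and 1 fell in HHC. Their summed level was 208 to 368 CPM in C, 550 to 3081 in H, 193 to 254 in CC_s, 503 to 1301 in HC, 206 to 368 in CC_l, 3020 to 3949 in HH, 719 to 838 in CCC and 681 to 1189 in HHC, and none was at 0 in any library. Of 6 lipid-associated macrophage markers, 4 rose in H, 4 in HC and 1 in HH. Ffar2, which immune cells are also known to express, had its highest levels in H and HH, and its log2 CPM went with the mean log2 level of macrophage markers at Pearson's r = 0.71 over the 20 libraries, which share groups and depth. In HC, where 7 of the macrophage markers rose, Ffar2 was not a DEG. The part of macrophage RNA in the Ffar2 values was not tested.

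Of 6 endothelial markers, 4 rose in H, 0 in HC and 6 in HH, and 2 fell in HHC. They summed to 135 to 147 CPM in CC_l, 722 to 1359 in HH, 241 to 491 in CCC and 74.2 to 98.4 in HHC, with none at 0. Npy1r, which blood vessels are also known to express, was higher in HH than in chow, and its lower value in HHC (log2FC -0.99) was not a DEG. In H, where 4 of the endothelial markers rose, Npy1r was not a DEG (log2FC -0.16). Of 6 adipocyte progenitor markers 1 rose in H, 1 in HC and 5 in HH, with sums of 421 to 653 CPM in CC_l and 3445 to 4992 in HH. Of the 5 pericyte and smooth muscle markers 1 rose in HH, and their sum was 167 to 179 CPM in CC_l and 590 to 1035 in HH. Adipocyte markers summed to 72709 to 82957 CPM in CC_l and 31368 to 35569 in HH, 1 of the 14 fell there, and Npy1r went with them at r = -0.71. Of the 14, Lep rose and 2 fell in H. The part of these cells in the Npy1r values was not tested. Of the remaining lists, 2 of 5 mesothelial markers fell in H and 1 in HHC, 3 of 5 spermatid markers rose in HC, and no lymphocyte or epididymal epithelium marker was a DEG in the 4 comparisons.

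**Figure D5:**
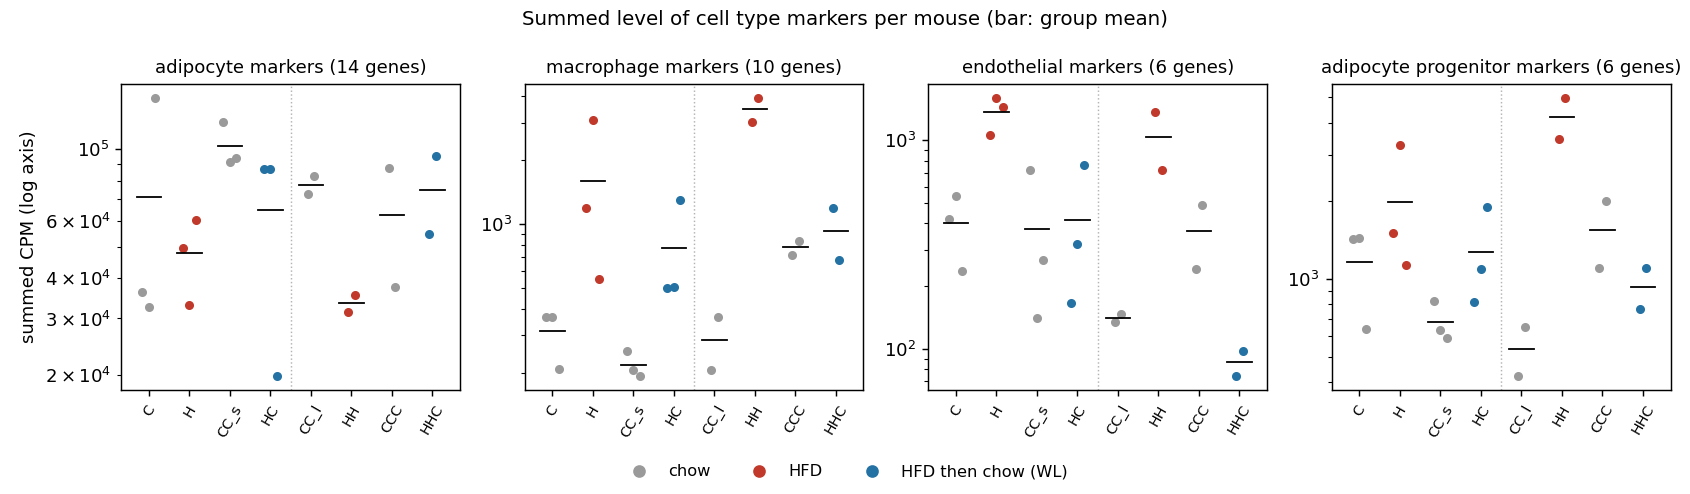
Summed CPM (log axis) of adipocyte, macrophage, endothelial and adipocyte progenitor markers per mouse in the 8 groups, with the group mean as a bar. Macrophage sums reach 3020 to 3949 in HH against 206 to 368 in CC_l, and endothelial sums fall from 722 to 1359 in HH to 74.2 to 98.4 in HHC.

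The genes most like each receptor over the 20 libraries were sought among 11599 genes with a mean of at least 1 log2 CPM, by Pearson's r of log2 CPM. These are descriptions over libraries that share groups and cell makeup. Npy1r was most like Il6st (r = 0.93), followed by Dll1 (0.89) and Grrp1 (0.89). Hcar1 was most like the transferrin gene Trf (0.86) and Pde3b (0.83), the phosphodiesterase through which insulin restrains lipolysis. Ffar4 was most like Atl2 (0.86) and Gpat3 (0.85), an enzyme of triglyceride synthesis. Ptger3 was most like Slc13a4 (0.89), Tm2d2 (0.87) and the adiponectin receptor gene Adipor1 (0.86). Cnr1 was most like Sqle (0.90), an enzyme of cholesterol synthesis, Sucnr1 like Lgr4 (0.90), Ffar2 like Casp2 (0.88) and Ifnar2 (0.88), Adora1 like Rab5c (0.78), and Hcar2 like Nup37 (0.84). The Hcar2 value rested on few libraries, with r = 0.62 once the 2 farthest were left out. Among the members, Ffar4 and Sucnr1 were the most alike pair (r = 0.74) and Adora1 and Cnr1 the least (r = -0.48). Ffar2 ran opposite to Ffar4 (r = -0.46) and Hcar1 (r = -0.47).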

How the data were processed

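The deposited file held raw counts per gene, which the authors made with FastQC 0.11.9, Trim Galore 0.6.6, HISAT2 2.2.1 on mm10 and featureCounts of Subread 2.0.1. The annotation, strand setting and handling of read pairs are not given in the sources used here; 74.4 to 89.2% of nonzero counts were even. Gene symbols came from GENCODE vM21 and matched 98.2% of rows. Genes were filtered with filterByExpr, scaled by TMM and fitted with edgeR 4.0.16 (R 4.3.3, glmQLFit and glmQLFTest) on all 20 libraries by group, with the study's cut-offs (nominal p under 0.01, absolute log2FC of at least 1) and Benjamini-Hochberg adjusted p over 21464 genes beside them. log2 CPM used a prior count of 2. The test was tried on simulated data. Alternatives were RLE scaling, DESeq2 1.42.0, no filter, the compared groups only, a replicate block, halved counts, and leaving out each mouse. All members were named, and of 5 pathway lists the DEGs, at most 5 a list by smallest nominal p; 1 listed gene is not reported here. The members and lists were chosen with earlier results of these data known. Each replicate was 1 mouse. Floors cover counting error only, whereas the 95% intervals of log2FC came from the edgeR fit and include the spread between mice. Leaving out mice for the pathway genes was added after seeing the data.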

Additional observations from a re-analysis of the deposited data

How the results depend on the processing

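In H against C the number of members called was 2, and 0 with the adjusted p as threshold, 1 (Ffar4) when the fit held the 2 compared groups alone, 1 (Adora1) without the 4 libraries with the most spermatid or epididymal markers, a setting chosen after seeing the data, and 1 to 3 when single mice were left out. RLE scaling, DESeq2 and halved counts each added Hcar1. In HC against CC_s it was 0, and 1 (Hcar2) with DESeq2. In HH against CC_l it was 1, and 0 with the adjusted p, 3 with only the compared groups, 0 without the 4 libraries, and 0 when any mouse was left out. In HHC against CCC it was 0, and 0 to 1 when single mice were left out. For the HHC effect minus the HH effect it was 0, and 1 (Npy1r) with DESeq2 and 1 (Ptger3) without the filter on low counts. The cause was not tested, except that fewer mice enter some fits.

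Whether the replicate numbers paired the mice cannot be told from these values. With 2 mice per group the deviations from the group mean mirror each other, so each comparison of the long arm gave a single value. Correlations of same-numbered deviations were -0.167, 0.187 and 0.192 for H and C, -0.277, 0.059 and -0.238 for HC and CC_s, -0.193 for HH and CC_l, and -0.260 for HHC and CCC. With the replicate block the members called in HH against CC_l numbered 0, and in H against C 2. Among the pathway genes the block ended the calls of Ptger4, Adcy5, Pde3a, Grk4 and Slc16a1 in HH and of Npy in HC.

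Some values that were not called changed sign. Hcar2 in HHC was 0.0018 with RLE, 0.0014 with DESeq2, 0.041 with only the compared groups, 0.048 with halved counts and 0.040 without the 4 libraries. Ptger3 in HC was 0.022 without the filter, 0.038 with the replicate block and 0.35 without the 4 libraries. Cnr1 in HC was -0.011 with halved counts and -0.075 without the 4 libraries, and without them Hcar2 in H was -0.11, Npy1r in HC -0.47 and Sucnr1 in HC 0.090. Leaving out single mice gave -0.055 to 0.65 for Hcar2 and -0.46 to 0.20 for Npy1r in H, -0.61 to 0.41 for Ptger3, -0.41 to 0.82 for Npy1r, -0.30 to 0.39 for Cnr1 and -0.41 to 0.15 for Sucnr1 in HC, -0.31 to 0.92 for Ffar4, -0.015 to 0.25 for Adora1 and -0.81 to 8.23 for Gipr in HH (the upper value without CC_l replicate 1, when the remaining CC_l mouse has 0 counts, so it is no fold), and -1.11 to 0.076 for Hcar1, -0.48 to 0.35 for Hcar2 and -1.37 to 0.17 for Sucnr1 in HHC. Low counts limit Gipr, Npy1r and Cnr1 most.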
